A study of Mus musculus with 6 samples.

Results

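The genes described here are the type VI collagens (Col6a1, Col6a2, Col6a3, Col6a4, Col6a5 and Col6a6), the VI-like collagen gene Col28a1, and 3 genes of the fibril-associated collagens with interrupted triple helices, or FACITs (Col12a1, Col14a1 and Col16a1). They were taken by gene symbol from a table of 23934 genes. All 10 were in the table, and all 10 passed the filter on low values. The libraries are bulk RNA sequencing of sorted mouse skin cells labelled as expressing tdTomato, at day 50, from 3 Zfp750 knockout samples and 3 controls. Zfp750, ZNF750 in the labels and in humans, encodes a zinc finger protein that drives terminal differentiation of the epidermis. The knockout samples carry Zfp750 fl/fl with 1 copy of Lrig1-CreER or Lrig1-CreERT2, a tamoxifen-activated recombinase under control of Lrig1, a gene of the upper hair follicle. The controls carry the same recombinase with 1 floxed Zfp750 allele in 2 samples and none in the other. Both groups received 4-hydroxytamoxifen as pups, on days 4 to 7 or days 5 to 8. Rosa26 is labelled -/- in all 3 knockout samples and in 2 controls and +/- in the control with no floxed allele, and the labels leave unsaid at which locus tdTomato was carried. The libraries are named knockout S5, S6 and S7 and control S2, S3 and S4 after their column names, which do not tell which numbered sample each is. Values per library are given in the order S5, S6, S7 for knockouts and S2, S3, S4 for controls.

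Type VI collagen forms beaded microfilaments in nearly all connective tissue. Its classic unit holds 1 chain each from Col6a1, Col6a2 and Col6a3, and the Col6a4, Col6a5 and Col6a6 chains resemble the Col6a3 chain and can stand in for it. FACITs do not form fibrils of their own but sit on the surface of fibrils made by type I and other fibrillar collagens, with large domains that reach out to neighbouring matrix. In skin these genes are known mainly as products of dermal fibroblasts. In bulk samples, fewer cells of a type and less RNA per cell cannot be told apart.

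The upstream sequences below are shown for the VI-like Col28a1, for the abundant type VI gene Col6a1 and for the 3 neighbouring type VI genes Col6a4, Col6a5 and Col6a6, whose log2 fold changes differed in sign. Each is the 250 bases before the gene start in RefSeq on GRCm38.p6, printed 5′ to 3′ on the gene's strand, which is the minus strand for all 5. They lie at chr10:76726045-76726294 for Col6a1, chr9:106096692-106096941 for Col6a4, chr9:105960644-105960893 for Col6a5, chr9:105828086-105828335 for Col6a6 and chr6:8192618-8192867 for Col28a1. Capitals mark matches to any of 4 motifs searched on both strands.
Col6a1: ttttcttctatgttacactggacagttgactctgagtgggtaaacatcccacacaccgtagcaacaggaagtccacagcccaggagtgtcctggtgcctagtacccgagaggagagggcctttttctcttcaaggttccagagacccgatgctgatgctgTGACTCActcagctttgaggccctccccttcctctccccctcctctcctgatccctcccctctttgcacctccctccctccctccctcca
Col6a4: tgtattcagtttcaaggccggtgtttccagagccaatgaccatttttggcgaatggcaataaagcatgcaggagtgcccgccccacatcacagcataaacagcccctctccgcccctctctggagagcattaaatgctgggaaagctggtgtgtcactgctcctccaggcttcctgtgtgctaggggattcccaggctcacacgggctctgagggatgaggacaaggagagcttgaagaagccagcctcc
Col6a5: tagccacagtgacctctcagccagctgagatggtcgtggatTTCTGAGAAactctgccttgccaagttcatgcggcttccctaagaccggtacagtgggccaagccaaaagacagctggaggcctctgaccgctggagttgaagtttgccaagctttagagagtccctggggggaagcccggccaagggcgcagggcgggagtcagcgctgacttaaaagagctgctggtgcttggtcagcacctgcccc
Col6a6: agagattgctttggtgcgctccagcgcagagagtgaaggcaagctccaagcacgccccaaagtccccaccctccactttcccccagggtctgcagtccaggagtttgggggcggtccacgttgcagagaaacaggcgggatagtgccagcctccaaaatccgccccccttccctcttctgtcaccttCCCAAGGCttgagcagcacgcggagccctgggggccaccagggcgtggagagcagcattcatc
Col28a1: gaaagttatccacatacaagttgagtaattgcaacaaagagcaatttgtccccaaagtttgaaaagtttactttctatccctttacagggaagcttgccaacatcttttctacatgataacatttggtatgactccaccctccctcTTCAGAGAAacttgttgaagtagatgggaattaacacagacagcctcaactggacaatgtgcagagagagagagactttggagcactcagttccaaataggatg

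RefSeq promoters were matched for 8 of the 10 genes, in 9 entries because Col6a2 has 2 overlapping ones. Col12a1 and Col14a1 had no match. The AP-1 motif TGANTCA, bound by Fos and Jun factors, was found in the Col6a1 sequence, 90 bases before the start, and in no other of the 9 entries. It is present in 6.75% of 32851 mouse promoters of the same length. The STAT motif TTCNNNGAA was found in Col6a5 and Col28a1, 209 and 104 bases before their starts, and in 7.02% of all promoters. The element CCNNAGGC, known as a ZNF750 motif in human keratinocytes, was found in 3 of the 8 genes, Col6a6, Col16a1 and Col6a2, where both overlapping entries hold the same site, and in 20.4% of all promoters. The TATA box TATAAA was found in 0 of the 9 entries and in 12.4% of all. The motifs did not overlap each other in these sequences. A match is a description of letters and not a bound site.

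In units of 1000000, the libraries held 16.9 to 20.2 estimated reads in knockouts and 15.3 to 20.7 in controls. Zfp750 was at 4.90, 1.82 and 7.16 normalized counts in knockouts, against 41.9, 3.75 and 314 in controls. It was below the filter on low values and was not tested in the main fit. With no filter on low values it was not called (log2 fold change -2.13 ± 0.98 SE; limma adjusted p = 0.275). Control S3 lay within the knockout range, so the targeted gene leaves its label unchecked, and results without S3 are given where they differ. Summed fibroblast markers exceeded summed basal keratinocyte markers in each library. These sums cover listed genes only and leave out gene length, so they are not totals for a cell type. The 12 fibroblast markers without collagens summed to 270421 to 383463 normalized counts in knockouts and 301418 to 569558 in controls. The 6 basal keratinocyte markers summed to 2918 to 22163 in knockouts and 571 to 23516 in controls, lowest in S3. Of the fibroblast markers, the growth factor receptor genes Pdgfra and Pdgfrb rose, Clec3b fell, and 9 did not pass the test. The Pdgfra call was lost without S2, S6 or S7 (adjusted p = 0.0612 to 0.101), and Pdgfrb was not called in any fit that left 1 library out (0.0555 to 0.139).

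The clearest change was in the FACIT gene Col12a1, with a mean 22.9-fold higher in knockouts, and the VI genes differed among themselves. Col12a1, Col6a4 and Col28a1 rose (limma, adjusted p under 0.05 over all 15935 tested genes), 0 members fell and 7 did not pass. Col6a4 passed the filter of 1 per 1000000 only through the knockouts, so it had to differ to be tested. At an unadjusted p under 0.05, 9 of the 10 passed, the exception being Col14a1. Across all tested genes 6.71% were called, 4.12% higher and 2.59% lower, and 23.2% had an unadjusted p under 0.05. The median log2 fold change of the 10 was 0.86, beside 0.014 over all tested genes. Groups did not overlap for 8 of the 10, 7 higher and 1 lower in knockouts, where groups did not overlap for 28.8% of tested genes, 15.7% higher and 13.1% lower. Together the 10 genes took 2.03% to 2.27% of the normalized total in knockouts and 0.675% to 0.952% in controls. The 3 most abundant fibrillar collagen genes, Col1a1, Col1a2 and Col3a1, took 4.96% to 6.18% of knockout totals and 17.5% to 33.1% of control totals, though none of them passed the test.

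**Figure D1:**
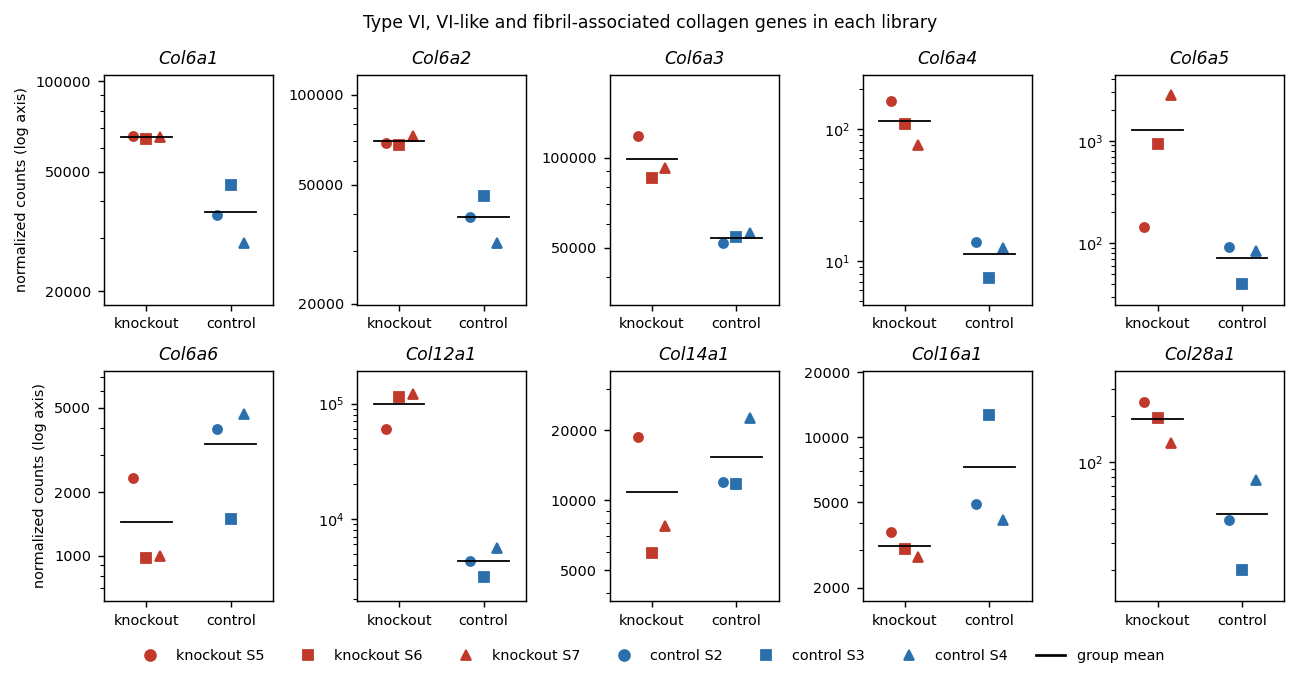
Normalized counts of the 10 collagen genes in each library, on log axes that differ between panels, with the group mean as a bar. The 3 knockout libraries lie above the 3 controls for Col6a1, Col6a2, Col6a3, Col6a4, Col6a5, Col12a1 and Col28a1, below them for Col16a1, and overlap them for Col6a6 and Col14a1.

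Among the FACITs, Col12a1 encodes the chain of type XII collagen, which links fibrils in dense connective tissue under load. It was at 60483, 114842 and 120062 normalized counts in knockouts. In controls it was at 4282, 3100.1 and 5540. The lowest knockout was above 10 times the highest control, and S5 was the lowest of the knockouts. The means were 98462 ± 32994 in knockouts and 4307 ± 1220.04 in controls (SD, n = 3 each), a ratio of 22.9. The log2 fold change was 4.49 ± 0.36 (SE; limma adjusted p = 0.00116), the 26th largest rise of all tested genes. By mean level Col12a1 ranked 7 among all genes in knockouts and 518 in controls. Leaving out each library in turn gave log2 fold changes of 4.27 to 4.81 (adjusted p = 0.00141 to 0.0135), the value without S3 being 4.27. An overlapping noncoding gene on the other strand, 4930562D21Rik, had at most 60.2 normalized counts in any library.

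Col14a1 encodes the chain of type XIV collagen, which is closely related to type XII and sits on the same kind of fibril. Its normalized counts were 18788, 5912 and 7790.5 in knockouts and 11956, 11741 and 22475 in controls. The groups overlapped, since S5 exceeded 2 of the 3 controls. Its log2 fold change was -0.62 ± 0.46 (SE; limma adjusted p = 0.470), with a 95% interval of -1.70 to 0.46.

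Per coding length, so that the genes can be compared, the ratio of Col12a1 to Col14a1 was 1.89, 11.4 and 9.04 in knockouts. In controls it was 0.210, 0.155 and 0.145. Col12a1 was thus the scarcer of the pair in each control and the more abundant in each knockout. The ratio averaged 7.44 ± 4.95 in knockouts and 0.170 ± 0.0352 in controls (SD, n = 3 each). It is given as a description, with no test.

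Col16a1 encodes the chain of type XVI collagen, a minor FACIT found near the dermal-epidermal junction. It was at 3618, 3017 and 2780 normalized counts in knockouts, below 4882, 12704 and 4147 in controls. The groups did not overlap, but control S3 stood far above the other 2 controls. On the log2 scale the difference was -1.03 ± 0.40 (SE; limma adjusted p = 0.181), and without S3 it was -0.53 (adjusted p = 0.199).

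The 3 main chains of type VI collagen were higher in each knockout than in any control, and none passed the test. Col6a1 was at 65915, 64553 and 65421 normalized counts in knockouts and at 35954, 45097 and 28901 in controls. Col6a2 was at 69063, 67772 and 72909 in the knockouts and at 38954, 45847 and 31792 in the controls. Knockout libraries lay within 1.02-fold of each other for Col6a1 and 1.08-fold for Col6a2, while controls spanned 1.56-fold and 1.44-fold. The ratio of means was 1.78 for Col6a1 and 1.80 for Col6a2. Their log2 fold changes were 0.86 ± 0.32 (SE; limma adjusted p = 0.162) and 0.86 ± 0.32 (adjusted p = 0.159).

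Col6a3, whose long chain carries many von Willebrand type A modules, was at 118420.0, 85565 and 92546 normalized counts in knockouts. Controls had 51679, 54414 and 56173, the narrowest control spread of the 10 genes. The ratio of means was 1.83 and the log2 fold change 0.86 ± 0.36 (SE; limma adjusted p = 0.204). When all libraries were rescaled to a common total, the 3 chains were called higher, with log2 fold changes of 1.18 for Col6a1, 1.19 for Col6a2 and 1.18 for Col6a3 (limma adjusted p = 0.0137, 0.0151 and 0.0396). That scaling moved the median of all genes by 0.31, so on the log2 scale the chains stood about as far above the median gene in both. The calls also depended on the variance model. With a prior variance that did not vary with mean level, the SEs were 0.21 for Col6a1, 0.19 for Col6a2 and 0.19 for Col6a3. The chains then came closer to the threshold but were not called (limma adjusted p = 0.0693, 0.0560 and 0.0534).

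The proportions of the 3 chains overlapped between the groups. Per coding length, the ratio of Col6a2 to Col6a1 was 1.06 ± 0.0376 in knockouts and 1.06 ± 0.0438 in controls (SD, n = 3 each). The ratio of Col6a3 to Col6a1 was 0.472 ± 0.0781 in knockouts and 0.477 ± 0.118 in controls. The libraries ranged from 0.414 to 0.561 in knockouts and from 0.377 to 0.607 in controls, so the groups overlapped. The lower value for Col6a3 rests on its longest coding sequence of 9852 bases, and transcript forms were not told apart. Relative to Col6a1, Col12a1 per coding length was 0.307, 0.595 and 0.614 in knockouts and 0.0398, 0.0230 and 0.0641 in controls.

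**Figure D2:**
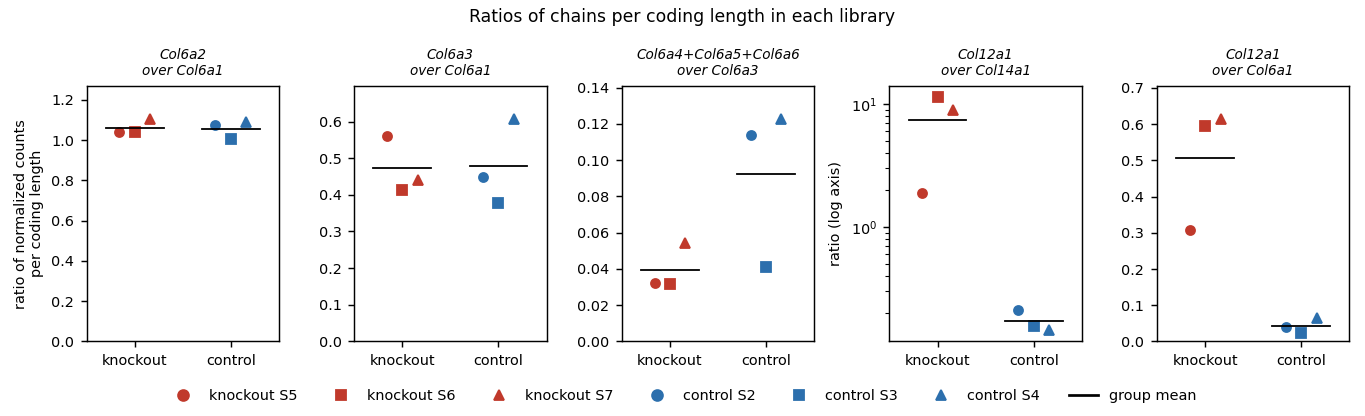
Ratios of normalized counts per coding length between collagen chains in each library, with the group mean as a bar and a log axis for Col12a1 over Col14a1. The proportions of Col6a1, Col6a2 and Col6a3 overlap between the groups, while Col12a1 exceeds Col14a1 in the 3 knockout libraries and in none of the 3 controls.

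Col6a4, Col6a5 and Col6a6, which encode the alternative chains of type VI collagen, lie side by side on the minus strand of chromosome 9 and within 409 kb in the table's own coordinates (build not given in the sources used here). Their log2 fold changes differed in sign, that of Col6a6 being below 0. Their sequences are related, so some reads may have been shared between them, and their separate values carry that uncertainty. Per coding length the 3 together came to 0.0321, 0.0317 and 0.0541 of Col6a3 in knockouts and to 0.114, 0.0409 and 0.123 in controls. They were thus minor beside Col6a3 in each library.

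Col6a4 was at 162, 109 and 76.4 normalized counts in knockouts, against 14.0, 7.49 and 12.6 in controls. These stand for 165, 120 and 96 estimated reads in the knockouts and only 11, 6 and 15 in the controls. The exact 95% Poisson interval of the lowest knockout, 61.9 to 93.3 normalized counts, lay above that of the highest control, 6.98 to 25.01. The means were 116 ± 43.1 in knockouts and 11.4 ± 3.42 in controls (SD, n = 3 each). Controls held 0.290 to 0.780 per 1000000 of the library total, all below the filter, and knockouts 4.75 to 9.67. The log2 fold change was 2.56 ± 0.34 (SE; limma adjusted p = 0.00700). The pseudocount of 9.15 is close to the control level, and with a 5 times smaller pseudocount the log2 fold change was 3.13 (adjusted p = 0.00716). The call held without each library in turn (adjusted p = 0.0134 to 0.0435).

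Col6a5 was at 144, 920 and 2772 normalized counts in knockouts, a 19.3-fold spread, and at 90.6, 40.2 and 82.9 in controls. Knockout S5 lay close to the controls while S6 and S7 stood far above them. The log2 fold change was 3.26 ± 0.93 (SE; limma adjusted p = 0.0873), 4.39 without S5 (adjusted p = 0.00709) and 2.30 without S7 (0.170). Without S6 or any 1 control it was not called either (adjusted p = 0.107 to 0.225). Summed markers of some cell types followed the same order in the knockouts, though single markers on these lists did not all do so. The upper follicle marker Lrig1, for example, was at 1844, 1577 and 2089 normalized counts in S5, S6 and S7. Sums that did not follow the order included macrophage markers (2002, 1649 and 14366), basal keratinocyte markers (3244, 2918 and 22163) and mast cell markers (1425, 4544 and 1634). The 6 fat cell markers summed to 294, 1361 and 8854 normalized counts in S5, S6 and S7 and to 48.8 to 137 in controls, with none at 0 in all libraries of either group, and 1 of 4 tested, Cfd, rose, a call lost without S2, S3, S4 or S6. Cfd too passed the filter only through the knockouts. T cell markers summed to 159, 997 and 1308 in knockouts and 52.5 to 383 in controls, endothelial markers to 1495, 2097 and 6151 in knockouts and 1345 to 2216 in controls, and upper follicle markers to 2828, 3032 and 6467 in knockouts and 673 to 7393 in controls, with 0 called on each of these 3 lists. Their part in the result was not tested.

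Col6a6 was at 2340.0, 977 and 1001 normalized counts in knockouts and at 3976, 1494 and 4671 in controls. Control S3 lay within the knockout range. The log2 fold change was -1.19 ± 0.50 (SE; limma adjusted p = 0.204), and -1.70 without S3 (adjusted p = 0.0736). Per coding length Col6a5 was 0.0527, 0.807 and 2.38 times Col6a6 in knockouts, and 0.0196, 0.0231 and 0.0152 times in controls.

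Col28a1 encodes a VI-like collagen known in mice mainly around peripheral nerve. It was at 246, 193 and 134 normalized counts in knockouts, above 41.9, 19.98 and 76.5 in controls. The means were 191 ± 56.3 in knockouts and 46.2 ± 28.5 in controls (SD, n = 3 each), a ratio of 4.14. This was a log2 fold change of 1.95 ± 0.42 (SE; limma adjusted p = 0.0378). Leaving out S4 kept the call (adjusted p = 0.0158), and leaving out any other library ended it (adjusted p = 0.0642 to 0.137). The 6 Schwann cell markers summed to 869, 408 and 790.02 normalized counts in knockouts and to 623 to 799 in controls, none was at 0 in all libraries of a group, and 0 of 6 passed the test in either direction. Their part in the result was not tested.

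**Figure D3:**
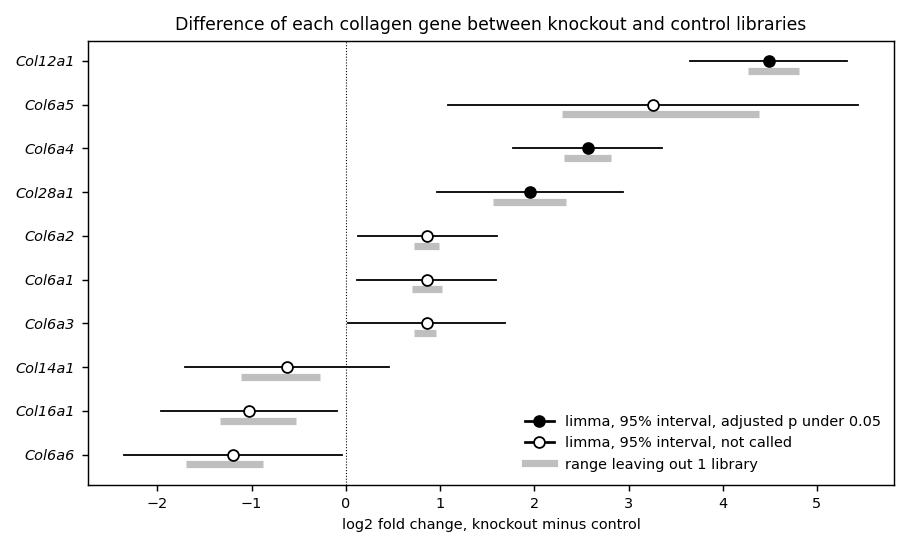
Log2 fold change of each collagen gene, knockout minus control, from limma on log2(value + 9.15), with its 95% interval (line) and the range when 1 library is left out (grey bar). Col12a1, Col6a4 and Col28a1 (filled) pass the test at 4.49, 2.56 and 1.95, and Col6a5 has the widest interval.

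The members were also set against the other fibroblast transcripts of each library, which shifts all their log2 differences by 1 common amount. Relative to the mean log2 level of the 12 fibroblast markers, Col12a1 was 4.59 higher in knockouts, Col6a5 3.36, Col6a4 2.67 and Col28a1 2.06. The main chains were 0.96 to 0.97 higher by this measure, with knockouts between 1.64 and 2.32 for Col6a1 and controls between 1.03 and 1.13, but against the median of the same markers the difference was 0.39 for each chain. For Col14a1, Col16a1 and Col6a6 the differences were -0.52, -0.92 and -1.09, and single controls moved them. Without S4 they were -0.071 for Col14a1 and -0.64 for Col6a6, and without S3 -0.81 for Col14a1, -0.56 for Col16a1 and -1.73 for Col6a6. Per 1000 normalized counts of Col1a1, the main fibril chain, Col12a1 had 148, 344 and 300.0 in knockouts and 1.99, 0.678 and 3.87 in controls. These are ratios between levels of different genes that leave out length, so only their difference between libraries can be read. Col1a1 itself did not pass the test (log2 fold change -2.67 ± 1.21 SE; limma adjusted p = 0.237), and with Col1a2, Col3a1, Col5a1 and Col5a2, 0 of the 5 fibril collagens on the list did. Groups did not overlap for 3 of the 5, all lower in knockouts, as for 13.1% of all tested genes. The ratios of means were 0.140 for Col1a1, 0.137 for Col1a2 and 0.298 for Col3a1, while Col5a1 and Col5a2 overlapped. The SE of each gene also holds a prior variance set by mean level, so a missing call does not show an unchanged level.

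Of 10 receptors for these collagens, all tested, 2 rose and 1 fell (median log2 fold change 0.27). The collagen-binding integrin chains Itga11 and Itga1 rose, with log2 fold changes of 1.55 ± 0.29 and 1.09 ± 0.17 (SE; limma adjusted p = 0.0246 and 0.0133). Each call was lost without S2, S6 or S7 (adjusted p = 0.0628 to 0.104 for Itga11 and 0.0507 to 0.0690 for Itga1). Itga2, another collagen-binding integrin chain, fell to 143, 82.9 and 132 normalized counts in knockouts, against 432, 417 and 391.9 in controls (-1.75 ± 0.23; adjusted p = 0.00711). The type VI collagen receptor gene Antxr2 was at 3951, 1845 and 2213 normalized counts in knockouts and 5361, 5760 and 5721 in controls, and did not pass (adjusted p = 0.0542).

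Of 14 tested extracellular partners 3 rose and 0 fell (median log2 fold change -0.055). These were Fmod, which encodes the fibril-binding proteoglycan fibromodulin (1.67 ± 0.35 SE; limma adjusted p = 0.0352), the matrilin gene Matn4 (2.00 ± 0.46; adjusted p = 0.0468), and Comp, which encodes cartilage oligomeric matrix protein (1.88 ± 0.35; adjusted p = 0.0224). The Fmod call was lost without S2, S3, S4, S5 or S6 (adjusted p = 0.0616 to 0.09996). Matn4 was lost without S3, S5, S6 or S7 (0.0656 to 0.161), and Comp without S2, S6 or S7 (0.0880 to 0.109). Comp was at 22.6, 32.8 and 39.0 normalized counts in knockouts and 0, 3.75 and 1.68 in controls, and passed the filter only through the knockouts. Tenascin X, a known partner of types XII and XIV, did not pass: Tnxb was at 113294, 51193 and 72450 normalized counts in knockouts and at 77938, 105203 and 94570 in controls (adjusted p = 0.739).

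Of 14 genes for folding and modifying collagen chains, all tested, 1 rose and 1 fell (median log2 fold change -0.17), and both encode catalytic subunits of collagen prolyl 4-hydroxylase. P4ha3 was at 532, 501 and 773 normalized counts in knockouts and at 22.9, 19.98 and 42.1 in controls (log2 fold change 4.05 ± 0.29 SE; limma adjusted p = 0.000782). P4ha2 was at 907, 892 and 759 normalized counts in knockouts and at 2849, 4027 and 1572 in controls (-1.62 ± 0.32; adjusted p = 0.0289), and was called only without S4 among the fits leaving out 1 library (elsewhere adjusted p = 0.0539 to 0.121). The third such gene, P4ha1, did not pass (-0.72 ± 0.21; adjusted p = 0.0892). Of the other FACIT collagens, 4 of 7 were in the table and only Col20a1 was tested, at 15.7, 19.1 and 24.7 normalized counts in knockouts and 52.1, 45.0 and 39.5 in controls (adjusted p = 0.102).

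**Figure D4:**
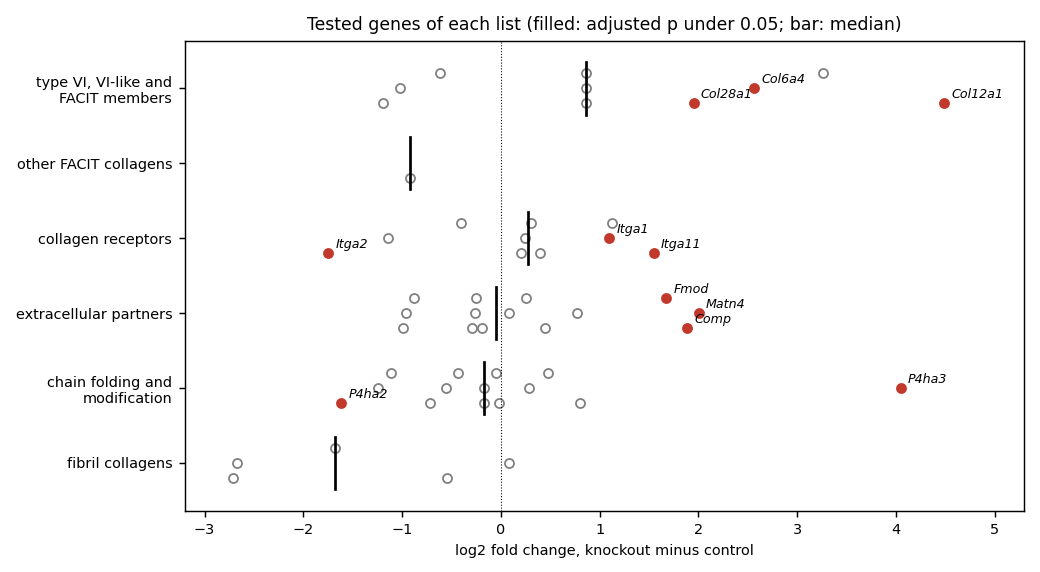
Log2 fold change, knockout minus control, of each tested gene on the lists, with the 10 collagen members in the top row, genes past an adjusted p of 0.05 filled and named, and the median as a bar. Col12a1 and P4ha3 lie furthest to the right, at 4.49 and 4.05.

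The genes whose levels followed each member most closely over the 6 libraries were sought by the root mean square difference of centred log2 profiles. Closest to Col12a1 were Prss35, a serine protease gene, and Gpr176, an orphan receptor gene, at differences of 0.30 and 0.36 log2 units. Prss35 was at 864, 1035 and 1134 normalized counts in knockouts and at 38.1, 17.5 and 69.8 in controls. Col6a4 was followed most closely by Tnfrsf11b, which encodes the decoy receptor osteoprotegerin, and by Agtr2, an angiotensin receptor gene (0.15 and 0.24). Closest to Col6a5 were the fat cell hormone gene Adipoq and Sdr16c6 (0.43 and 0.46), so no gene followed it as closely as others did their members. Adipoq was at 6.86, 111 and 519 normalized counts in knockouts and at 0, 1.25 and 2.52 in controls. It did not pass the filter for testing, and it reached the mean level required for this search only through the knockouts.

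Col6a1 and Col6a2 shared Kctd10 among their closest genes, at 0.097 and 0.087, with Atxn1 for Col6a1 (0.095) and Extl3 for Col6a2 (0.086). Stk38l and the follistatin gene Fst followed Col6a3, each at 0.077 to 0.078. Pcdh19 and the lipoprotein lipase gene Lpl followed Col14a1 (0.14 each), Aff3 and Tent5a followed Col16a1 (0.091 and 0.13), Nid2 and Myoc followed Col6a6 (0.23 and 0.26), and Cyp1b1 and Ggt7 followed Col28a1 (0.24 and 0.26). These likenesses rest on 6 libraries in 2 groups and are descriptions only.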

How the data were processed

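RNA was sequenced from sorted skin cells of 3 Zfp750 knockout and 3 control samples at day 50. The authors deposited 1 table of normalized counts, a signal per gene and library. From the values it is read as estimated reads divided by 1 factor per library: 78.7% to 81.2% of values up to 1000 reads are whole reads within 0.05, the rest fractions, so count models were not run. TopHat2 2.1.0 and Partek 9.0.20.0202 appear in the submitters' processing notes, with no roles. The build and the use of strand in counting were not given in the sources used here. Values are not divided by gene length. A floor of 3 reads is 2.39 to 3.81 normalized counts. Poisson intervals cover counting error only. The SEs and intervals of fold changes come from limma. They combine the spread between libraries with a prior variance that depends on mean level, so they do not measure that spread alone.

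The test was limma 3.58.1 (R 4.3.3), 2-sided, with a mean-dependent prior variance. It used log2(value + 9.15), where 9.15 is 0.5 per 1000000 of the average library total, so changes of low genes are understated. A gene was tested if at least 3 libraries held 1 per 1000000 or more. P-values were adjusted by Benjamini and Hochberg over all 15935 tested genes. The method was run on simulated counts with the same spread for all genes and no differences in cell makeup between libraries. Changed genes were drawn only from levels above those of Col6a4 and Col28a1. The run therefore does not show how the test behaves on real libraries or on such low genes. Coding length is the longest coding sequence in GENCODE M21, matched by gene ID. Columns give groups but match no numbered sample. The labels do not state that every library came from its own animal, so the spread between libraries that enters the p-values may be partly technical.

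The members and lists were chosen with earlier results of these data known. The plan was to name list genes when called, or else the 2 with the highest mean. Some cell type lists were left out or given only as sums. Their called genes were Cd14 of the macrophage list (higher, log2 fold change 2.02; limma adjusted p = 0.0450), Des of smooth muscle (lower, -1.20; 0.0132) and Krt10 of suprabasal keratinocytes (lower, -1.77; 0.0496). Each of these calls was lost without S2. Antxr2, Tnxb, P4ha1 and Col20a1, and the fibroblast lineage marks, were named after their values were seen. The 2 closest genes of each member had a mean of at least 5 per 1000000, predicted genes left out.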

Additional observations from a re-analysis of the deposited data

How the results depend on the processing

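The limma results were recomputed under 16 alternatives. All 16 kept the direction of each of the 10 members where it was tested, and the number called lower stayed at 0. Col12a1 was called in all 16 and Col6a4 in all 15 that tested it, the filter at 5 per 1000000 leaving it out. Except in the fit with no filter, Col6a4 entered each of these only through its level in knockouts, so they do not check that selection. Members called higher numbered 6 with a common total, against 3, and 2 to 3 when 1 library was left out. Col28a1 kept its call in 9 of 16. All genes called higher numbered 1057 with a common total, against 657, and 231 to 685 when 1 library was left out. All genes called lower numbered 620 with a common total without the 10 highest genes, against 413, and 92 to 587 when 1 library was left out.

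Relative to the median instead of the mean of the fibroblast markers, the log2 differences were 0.39 for Col6a1, 0.39 for Col6a2, 0.39 for Col6a3 and 2.09 for Col6a4. Col12a1, Col6a5 and Col28a1 were also less far above the markers by this measure, at 4.02, 2.79 and 1.48. The differences were -1.09 for Col14a1, -1.50 for Col16a1 and -1.66 for Col6a6. For Col6a4 the difference relative to the mean of the markers was 3.23 with a 5 times smaller and 1.57 with a 5 times larger pseudocount. Without the length divisor, Col6a3 over Col6a1 averaged 1.51 in knockouts and 1.53 in controls, Col12a1 over Col14a1 averaged 12.7 in knockouts and 0.290 in controls, and Col12a1 over Col6a1 averaged 1.51 in knockouts and 0.127 in controls, since the chains differ in length. The Col12a1 ratios and their alternatives were added after seeing the data. The column names carry numbers of their own, 2 of them in both groups, that match no replicate number of the labels. With these as a replicate block, added after seeing the data and leaving 1 residual degree of freedom, 4 members were called higher, Col6a5 being added (log2 fold change 4.52; adjusted p = 0.0216), and 821 genes were called higher and 706 lower. Deviations of the 2 same-numbered pairs correlated at 0.251 and -0.223, so nothing shows that the numbers pair the libraries. Col6a4 in controls, at 6 to 15 reads, is limited by depth.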

Other observations

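Within the knockouts the members split by library. Knockout S5 had the highest level of the 3 knockouts for 7 of the 10 genes, and the lowest for Col12a1 and Col6a5. For Col14a1 and Col6a6, S5 was at 18788 and 2340.0 normalized counts, against 5912 and 7790.5 and against 977 and 1001 in S6 and S7. Among controls, S3 was lowest for 6 of the 10 genes. The 8 mast cell markers summed to 1425, 4544 and 1634 normalized counts in knockouts and to 44.5 to 619 in controls, where Fcer1a and Tpsab1 were listed at 0 in each library, and 3 of 7 tested rose, Fcer1a, Tpsab1 and Tpsb2. Fcer1a and Tpsab1 passed the filter on low values only through the knockouts. The count was 1 without S2 or S7, 2 without S3 or S6, and 7 without S4. Their part in these differences was not tested.

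Of 4 genes on the list of fibroblast lineage marks, Prdm1 and Dlk1 rose and Dpp4 fell. Prdm1, a transcriptional repressor gene, was at 1718, 3666 and 1293 normalized counts in knockouts and at 111, 78.7 and 100.1 in controls (log2 fold change 4.27 ± 0.37 SE; limma adjusted p = 0.00159). Dlk1 was at 305, 329 and 147 in knockouts and at 19.1, 7.49 and 9.25 in controls (3.64 ± 0.38; adjusted p = 0.00309), and passed the filter only through the knockouts. Dpp4 fell to 1713, 1047 and 780 normalized counts in knockouts, against 3431, 4378 and 3985 in controls (-1.80 ± 0.28; adjusted p = 0.0127), a call lost without S2 or S6 (adjusted p = 0.0526 to 0.0669).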
